A study of Mus musculus with 9 samples.

Results

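The mouse genes that encode the proteins of the cytosolic ribosome were examined in the sublingual salivary gland before and after irradiation. Members were taken by symbol: protein-coding genes named Rpsa, Rplp0, Rplp1 or Rplp2, or named Rpl or Rps followed by a digit, without the Rps6k kinases and without names marked as pseudogenes by "-ps". The rule took 86 of 54532 genes. Of these, 77 encode the standard proteins of the ribosome, 31 in the 40S subunit and 46 in the 60S subunit. A further 8 are paralogs of standard members, and Rps19bp1 encodes a protein that binds Rps19 and is itself no ribosomal protein. Of the 86, 83 passed a filter on low counts and were tested. The remaining 3 are paralogs: Rpl10l was listed at 0 in all 9 libraries, Rpl39l had at most 7 counts in a library and Rpl3l at most 5.

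RNA-seq was carried out on sublingual glands, the mucous salivary glands under the tongue, of wild-type mice (genotype WT). There were 3 libraries from glands with no radiation, 3 from glands taken 7 days after 10 Gy and 3 from glands taken 14 days after 10 Gy. All groups shared the tissue and the genotype, and RNA came from tissue sections of whole glands. The labels do not say whether the libraries of a group came from separate animals, so p-values cover only the variation among the libraries at hand, which may be technical. In bulk tissue, fewer cells of a type and less RNA per cell cannot be told apart.

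A ribosome is made of a small subunit, which reads the mRNA, and a large subunit, which joins the amino acids. Apart from the stalk proteins, ribosomal proteins are needed in equal numbers, and their mRNAs are short, abundant and controlled together: many begin with a C followed by a run of pyrimidines, the terminal oligopyrimidine (TOP) tract, through which mTORC1 signalling sets how actively they are translated. Secretory acinar cells, which make up most of a salivary gland, depend on a large supply of ribosomes. When ribosome assembly is disturbed, free Rpl5 and Rpl11 bind Mdm2 and stabilise p53, which links this gene group to the response to radiation.

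The start of transcription is shown for members that moved together, because the TOP tract lies there. RefSeq promoter sequences (GRCm38.p6) were found for 66 of the 86 members. Each window runs 5′ to 3′ on the gene's strand, from 10 bases before an annotated start to 20 bases from it, and capitals mark a C at the start with at least 4 further C or T bases after it. The first 6 are members with such a tract: Rps6, the mTORC1 pathway's classic phosphorylated 40S protein, Rpl15, Rps18, and the short mRNAs of Rpl38, Rps27 and Rps21. They are followed by Rps27rt, an intronless copy of Rps27, and by 2 members without a tract at the start, Rpl7l1 and Rps19bp1. Standard members such as Rpsa, Rps3, Rpl5 and Rpl11 also have no tract at the start and are not shown.
Rps6: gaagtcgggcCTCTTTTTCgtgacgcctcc
Rpl15: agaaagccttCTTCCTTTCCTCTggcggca
Rps18: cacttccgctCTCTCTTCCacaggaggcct
Rpl38: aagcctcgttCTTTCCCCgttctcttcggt
Rps27: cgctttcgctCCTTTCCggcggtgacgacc
Rps21: aggacccgccCTCCTgcccaatagtgctgc
Rps27rt: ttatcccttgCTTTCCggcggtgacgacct
Rpl7l1: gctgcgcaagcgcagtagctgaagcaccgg
Rps19bp1: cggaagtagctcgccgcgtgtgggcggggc

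These windows lie at chr4:86857348-86857377 on the minus strand (Rps6), chr14:18270967-18270996 on the minus strand (Rpl15), chr17:33955646-33955675 on the minus strand (Rps18) and chr11:114668570-114668599 on the plus strand (Rpl38). Those of Rps27 (chr3:90213629-90213658, minus strand), Rps21 (chr2:180257369-180257398, plus strand) and Rps27rt (chr9:114982720-114982749, minus strand) hold shorter tracts. Rps21 has a second annotated start, at which no tract begins, and the other genes shown have 1 start each in the table. Rpl7l1 (chr17:46782637-46782666) and Rps19bp1 (chr15:80264287-80264316) lie on the minus strand. A tract beginning exactly at an annotated start was found in 14 of 66 members (21.2%), against 813 of all 27025 genes in the table (3.01%) and 8 of 137 other short, abundant genes (5.84%). Allowing the tract to begin within 5 bases of the start gave 30 of 66 members (45.5%) and 21.2% of all genes. A match describes these letters only, and the annotated start need not be the one used in the gland.

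Total counts ran from 15962399 to 19441239 per library. Control library 3 stood apart from the other controls: member genes took 2.95% of its counts against 3.47% and 3.39%. In each library the level of protein-coding genes was also compared with the control mean as a function of transcript length, here the length of the annotated principal transcript. The slope, in log2 units per 10-fold increase in length, was −0.19, −0.08 and 0.27 in controls 1 to 3, between 0.74 and 1.03 at day 7, and between 0.44 and 0.48 at day 14. A positive slope means that short transcripts were low relative to long ones. Tested members had a median principal transcript of 780 bases (345 to 5130), against 2930 in the other 13347 tested protein-coding genes. The members' medians and numbers called are therefore also set beside other short genes further on. Shares of counts, subunit medians and most single-gene changes are given without that comparison.

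Markers moved between the groups too. The 8 dividing-cell markers all rose at day 7, their summed level running from 8.17 to 17.3 CPM (counts normalised for library size) in controls, from 83.6 to 137 at day 7 and from 13.7 to 31.4 at day 14. The 12 acinar markers, which define the gland's main cell type, were all detected and summed to between 255794 and 351567 CPM in controls, 235266 and 252281 at day 7, and 257985 and 283754 at day 14, with 7 of the 11 tested lower and 1 higher at day 7. Macrophage markers summed to between 196 and 226 CPM in controls, 108 and 167 at day 7, and 264 and 338 at day 14. Plasma-cell markers summed to between 1757 and 2545 CPM in controls and 1351 and 1463 at day 7, and duct markers to between 3766 and 5280 and between 2881 and 3287. The duct markers did not move together: of 9 tested, 2 were called lower and 3 higher at day 7. Among all tested genes these shares were 14.8% and 15.8%. Fibroblast markers ran from 354 to 382 CPM in controls and from 407 to 494 at day 7, and endothelial markers from 332 to 374 and from 411 to 494. B-cell markers never passed 2.05 CPM and T- and NK-cell markers never passed 6.72 CPM. A correction for transcript length and GC content, described further on, changed several of these day 7 calls. It left 0 of 7 plasma-cell and 0 of 8 macrophage markers lower, from 3 in each. Acinar markers then had 5 lower and 0 higher, and duct markers 1 lower and 1 higher. Higher calls went from 2 to 0 in 6 endothelial and from 3 to 2 in 6 fibroblast markers. All 8 dividing-cell markers stayed higher. Among all genes it called 9.21% lower and 8.46% higher. The part of the marker differences in the results on ribosomal protein genes was not tested.

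At day 7 nearly the whole gene group was lower than in controls. The mean share of counts in member genes was 3.27% ± 0.282 (SD, n = 3) without radiation, 2.39% ± 0.0993 after 7 days and 2.85% ± 0.0262 after 14 days. By library the share was 3.47%, 3.39% and 2.95% in controls, 2.30%, 2.50% and 2.38% at day 7, and 2.86%, 2.82% and 2.87% at day 14. The 3 groups did not overlap in order from control to day 14 to day 7. The median member stood at 62.3% of its control level at day 7 and at 80.3% at day 14.

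**Figure D1:**
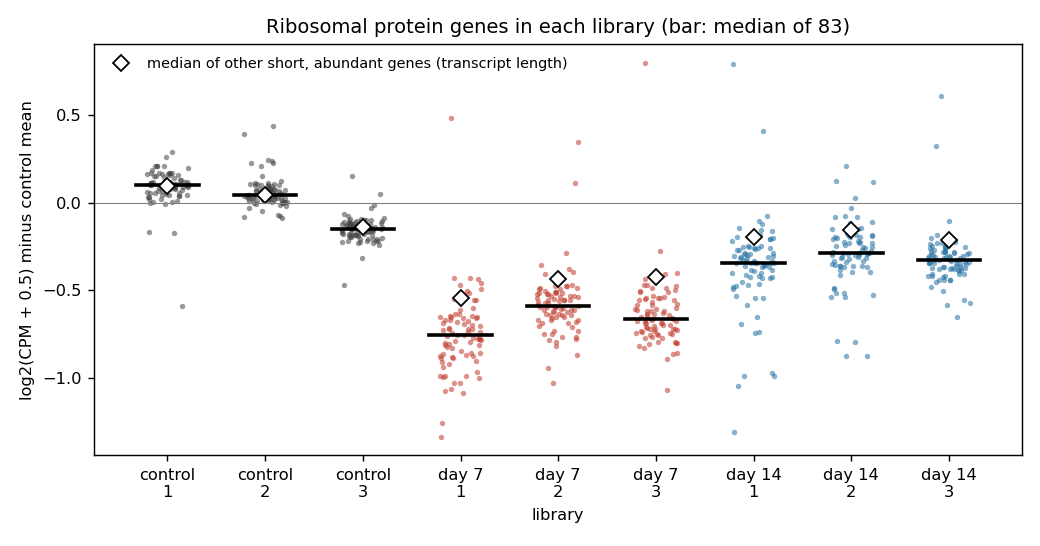
Each point is 1 of the 83 tested ribosomal protein genes in 1 library, as log2(CPM + 0.5) minus its mean over the 3 controls. Bars are medians over members (0.10, 0.04 and −0.15 in controls, −0.76, −0.59 and −0.66 at day 7, −0.34, −0.29 and −0.33 at day 14), and diamonds are medians over 169 other genes of like transcript length and abundance, which were low in the same libraries by a smaller amount.

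In the comparison of day 7 with control, 80 of 83 tested members were lower and 0 higher at an adjusted p under 0.05 (edgeR's quasi-likelihood test, Benjamini-Hochberg adjustment over 15348 genes). Among all tested genes, 14.8% were called lower and 15.8% higher. No member was higher at an unadjusted p under 0.05 either, and DESeq2 and limma-voom also called 0 higher, with 81 and 80 lower (15.4% and 16.2% of all genes). The median log2 change of members was −0.68, against 0.02 for all genes, and 81 members lay below every control library in every day 7 library, a pattern seen in 21.7% of all genes. The 3 members not called were Rps29 (−0.85, adjusted p = 0.0656), Rpl24 (0.75) and Rpl36al (−0.36).

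The fall was of like size in both subunits. The 31 members of the 40S subunit had a median log2 change of −0.69, with 30 lower, and the 46 of the 60S subunit one of −0.68, with 45 lower. Rpsa, a 40S protein also known as the laminin receptor, was measured at 783, 801 and 732 CPM in controls, 451, 496 and 484 at day 7, and 640, 619 and 594 at day 14. All day 7 and day 14 libraries lay below all controls, and the day 7 change was −0.69 (SE 0.09, adjusted p = 2.92e-05). Rps3, a 40S protein at the mRNA entry site that also acts in DNA repair, was measured at 738, 690 and 568 CPM in controls, 372, 416 and 391 at day 7, and 532, 538 and 538 at day 14. Its groups did not overlap at either day, and it fell by 0.76 at day 7 (SE 0.10, adjusted p = 3.54e-05).

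Rps14, whose loss of one copy in people underlies the anaemia of the 5q deletion, was measured at 704, 702 and 567 CPM in controls, 353, 382 and 390 at day 7, and 515, 519 and 527 at day 14. It had the smallest adjusted p among the members named here, 2.06e-05, for a log2 change of −0.81 (SE 0.10), with no overlap between control and day 7. Rps6 was measured at 499, 490 and 427 CPM in controls, 328, 323 and 317 at day 7, and 425, 413 and 378 at day 14. Its day 7 libraries lay close together and below all others (−0.55, SE 0.09, adjusted p = 0.000213). Rps19, mutated in Diamond-Blackfan anaemia, changed by −0.68, Rps25, needed for initiation on some viral RNAs, by −0.64, Rps4x by −0.60, and Rps27a, made as a fusion with ubiquitin, by −0.56. All of these were called lower at day 7.

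The stalk of the 60S subunit, which recruits elongation factors, is made of Rplp0, Rplp1 and Rplp2, and all 3 fell at day 7. Rplp1 was measured at 873, 819 and 735 CPM in controls, 404, 517 and 478 at day 7, and 573, 625 and 623 at day 14. The groups did not overlap, and the changes were −0.79 for Rplp1 (SE 0.10, adjusted p = 3.33e-05), −0.78 for Rplp2 and −0.62 for Rplp0. Rpl5 and Rpl11, which form a particle with the 5S RNA and can bind Mdm2, changed by −0.50 and −0.65, with adjusted p of 0.000319 and 0.000123. Rpl5 was measured at 685, 658 and 599 CPM in controls, 467, 447 and 458 at day 7, and 594, 614 and 562 at day 14. Rpl5 at day 7 lay below every other library, and at day 14 it overlapped the controls.

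Among the larger changes in the 60S subunit was that of Rpl39, a small protein at the exit tunnel, at −0.87 (SE 0.13, adjusted p = 0.000104). Rpl41, the smallest ribosomal protein, changed by −0.82, Rpl35a by −0.81, Rpl36a by −0.78 and Rpl36 by −0.77. Rpl23a, near the tunnel exit, changed by −0.69, close to the 60S median of −0.68. Rpl10, which joins the 60S subunit last, changed by −0.54, and Rpl22 by −0.55. The smallest called falls among the standard 60S proteins were those of Rpl3, a protein near the peptidyl transferase centre, and Rpl6. Rpl3 was measured at 762, 779 and 666 CPM in controls, 544, 601 and 554 at day 7, and 598, 646 and 628 at day 14. The day 7 libraries lay below all controls but overlapped day 14 (day 7 change −0.38, SE 0.09, adjusted p = 0.00387, but 0.07 when scaled on short genes as described further on). Rpl6 changed by −0.45 at day 7.

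Of the 5 tested paralogs, 4 fell at day 7, with a median change of −0.56. Rps27l, a paralog of Rps27 and a known p53 target, was measured at 125, 121 and 104 CPM in controls, 86.1, 90.8 and 95.8 at day 7, and 93.5, 119 and 108 at day 14. The day 7 libraries lay just below the lowest control, and its change of −0.36 (SE 0.10, adjusted p = 0.0127) was among the smallest of the group, and became 0.09 under that scaling. Its relative Rps27 changed by −0.79 in the same comparison. Rpl22l1 changed by −0.72, Rpl7l1 by −0.56 and Rps27rt by −1.07. Rps27rt stood at only 2.72 to 3.05 CPM in controls, and as a near-copy of Rps27 it may share reads with it, so its value is uncertain. Rps19bp1, the non-ribosomal member, was measured at 22.7, 19.6 and 20.4 CPM in controls, 11.1, 10.6 and 9.67 at day 7, and 15, 15.7 and 16.6 at day 14. The groups did not overlap, and it fell by 1.00 at day 7 (SE 0.14, adjusted p = 6.09e-05).

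Levels of different members are compared per kilobase of principal transcript. The highest in controls were Rplp1 at 1621 CPM per kilobase, Rpl41 at 1313, Rpl10 at 1273, Rps15 at 1123 and Rps27 at 1082, and the median member stood at 530. The 5 lowest were Rpl24 at 1.13, Rpl36al at 2.93, Rps27rt at 7.84, Rps10 at 9.33 and Rpl13a at 14.1. Rps27rt overlaps no other annotated exon. The exons of Rpl24, Rpl36al, Rps10 and Rpl13a overlap those of genes on the same strand (Gm28037, Gm49383, RPS10-NUDT3 and Gm45713). How reads shared by 2 genes were counted is not given in the sources used here, and the part of this overlap in these low levels was not tested. In all, 28 members overlap an exon of another gene on the same strand, 17 of them a named small nucleolar RNA, and 19 overlap one on the other strand. Rpl24 was measured at 0.305, 1.15 and 0.848 CPM in controls and 1.19, 1.04 and 1.61 at day 7, so its positive change (0.75, SE 0.51) rests on few counts and did not pass the test.

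At day 14 the members lay between control and day 7. Against control, 15 of 83 were lower and 0 higher (0 also at an unadjusted p under 0.05 and by DESeq2 and limma-voom). Among all genes, 0.632% were called lower and 1.13% higher. The median log2 change was −0.32 against 0.01 for all genes, and 69 members lay below every control in every day 14 library, against 10.7% of all genes. The called members were Rplp1, Rpl31, Rpl32, Rpl34, Rpl35, Rpl36, Rpl37, Rpl37a, Rpl38, Rpl41, Rps18, Rps21, Rps26, Rps27 and Rps28. The count depended on single libraries. It was 71 without control 3, where 5.3% of all genes were called lower. It was 0 without control 1, without control 2 or without day 14 library 2, where 0.0506%, 0.0379% and 0.0758% of all genes were called lower (at an unadjusted p under 0.05, 62, 64 and 76 members and 6.33%, 8.33% and 8.17% of all genes). It was 1 without day 14 library 1 (0.114% of all genes), 4 without day 14 library 3 (0.0825%) and 10 without day 7 library 2 (0.342%). DESeq2 called 57 lower (3.55% of its genes) and limma-voom, run with a quality weight for each library, 59 (1.99%).

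Between day 7 and day 14, 50 of 83 members rose and 0 fell (0 also at an unadjusted p under 0.05 and by the other tests). Among all genes 3.72% were called higher and 2.87% lower. The median log2 change was 0.35, a median level at day 14 of 127% of that at day 7. In 68 members every day 14 library lay above every day 7 library, a pattern seen in 15.9% of all genes. The rise was 0.47 for Rps14 (SE 0.09, adjusted p = 0.00643), 0.45 for Rps3 (adjusted p = 0.0103), 0.37 for Rpsa and for Rpl5, 0.33 for Rps6 and 0.32 for Rplp0. The number that rose was 9 without day 7 library 1 (1.32% of all genes), 21 without library 2 (1.34%) and 20 without library 3 (2.11%) of that day. It was 20, 7 and 21 without day 14 libraries 1, 2 and 3 (1.52%, 1.4% and 2.05%). It was 25 without control 2 (2.46%), although no control is part of this comparison. The lowest of the leave-one-out medians was 0.30.

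The members with the shortest transcripts differed least between the 2 times. In the 7 tested members with a principal transcript of at most 400 bases (Rps27, Rpl38, Rps27rt, Rpl36, Rps28, Rps29 and Rps21), the median log2 change was −0.80 at day 7 and −0.78 at day 14, with 6 and 5 called lower. Day 14 against day 7 had a median of 0.12 there, with 0 called by edgeR (1 at an unadjusted p under 0.05). In the 6 members of over 400 to 500 bases it was 0.38, with 4 called higher. The classes above 500 bases had medians between 0.33 and 0.36. In the 10 members of over 1500 bases it was 0.36, with 7 called higher. The 14 other genes of at most 400 bases had medians of −0.70 at day 7, −0.46 at day 14 and 0.20 between the times. Of these, 4 and 3 were called lower at day 7 and day 14, and 0 were called between the times. Other genes of over 400 to 500 bases had 0.30 between the times. Among all genes, 14.8% and 0.632% were called lower at day 7 and day 14, and 3.72% higher at day 14 than at day 7. Whether the length classes differ in their change between the times was not tested.

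Rps28, a 40S protein at the mRNA exit, was measured at 192, 158 and 154 CPM in controls, 78.9, 109 and 101 at day 7, and 84.9, 96.2 and 123 at day 14. Both irradiated groups lay wholly below the controls and overlapped each other (day 14 against day 7: 0.07, SE 0.14). Rpl38, a 60S protein known for its part in translating Hox mRNAs, was measured at 221, 196 and 176 CPM in controls, 96.1, 134 and 126 at day 7, and 98.7, 113 and 133 at day 14. It showed the same order, with a difference between the times of −0.05 (SE 0.13) and a fall of 0.78 at day 14 (adjusted p = 0.0169). Rps21 was measured at 413, 374 and 310 CPM in controls, 151, 218 and 200 at day 7, and 175, 198 and 244 at day 14. Its changes were −0.94 at day 7 and −0.83 at day 14, and the 2 irradiated groups again overlapped. Rps29, a zinc-binding 40S protein, was measured at 241, 188 and 170 CPM in controls, 77.9, 130 and 123 at day 7, and 79.5, 107 and 145 at day 14. Its irradiated libraries spread more widely, its change was −0.85 at both times (SE 0.29), and neither passed the test.

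**Figure D2:**
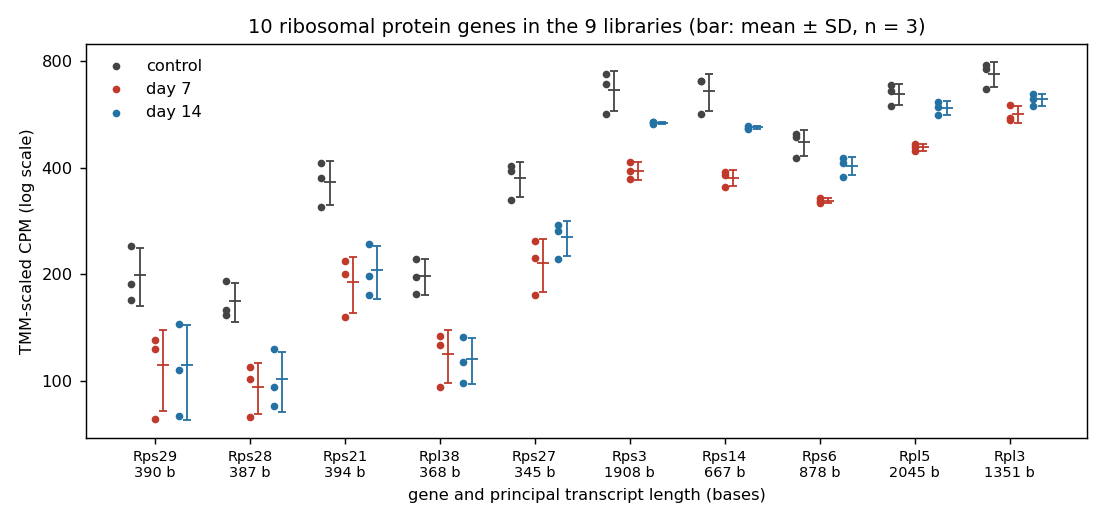
TMM-scaled CPM (log axis) of 10 ribosomal protein genes, from 5 with very short principal transcripts on the left to 5 longer ones on the right. Points are libraries and bars are mean ± SD (n = 3). For Rps29, Rps28, Rps21 and Rpl38 the day 7 and day 14 libraries overlap, as they do for the longer Rpl3. For Rps3, Rps14, Rps6 and Rpl5 every day 14 library lies above every day 7 library. The same holds for the short Rpl36 (383 bases), which is not drawn.

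In both comparisons with control, change and transcript length went together, inside the group and outside it. Across the 83 members, Spearman's rho between principal transcript length and log2 change was 0.53 at day 7 and 0.50 at day 14. Across the other 13347 protein-coding genes it was 0.54 and 0.43. For day 14 against day 7 it was 0.10 across members and −0.37 across the other genes. These are descriptions across genes that share the same libraries, and genes are not independent replicates. At day 7, the 7 members of at most 400 bases had a median of −0.80 and the 14 other genes of that length −0.70. Between 600 and 800 bases the medians were −0.68 in 19 members and −0.58 in 257 other genes, of which 56.0% were called lower. Between 1000 and 1500 bases they were −0.64 in 14 members and −0.37 in 1281 other genes. Above 1500 bases they were −0.64 in 10 members and 0.09 in 11282 others, of which 10.6% were called lower. The members' medians thus ranged from −0.80 to −0.64 over the length classes, while those of the other genes ranged from −0.70 to 0.09.

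**Figure D3:**
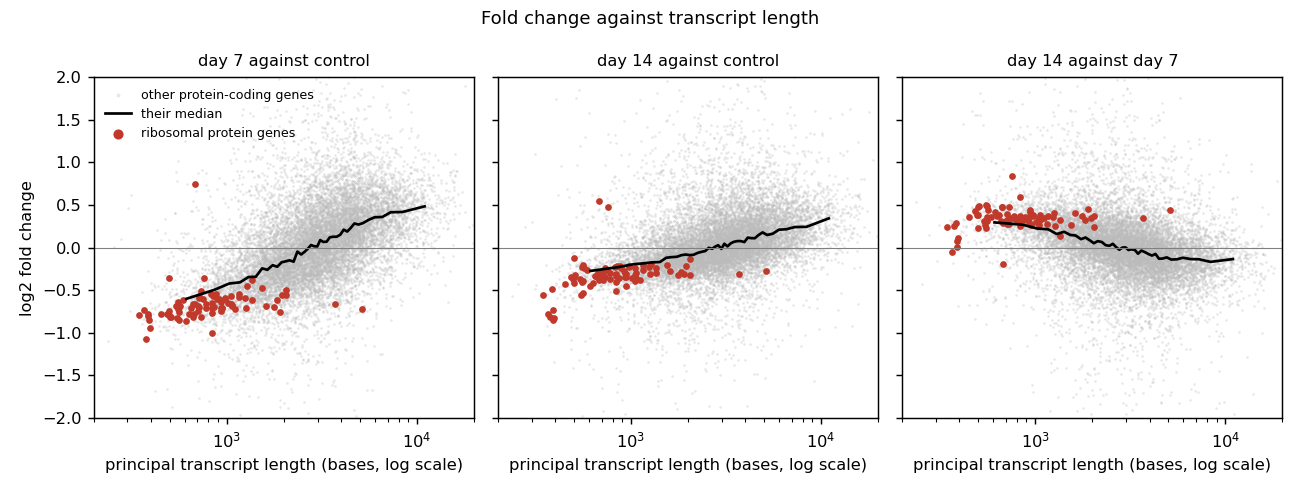
Log2 fold change against principal transcript length (log axis) in the 3 comparisons, for the 83 ribosomal protein genes (red), other tested protein-coding genes (grey) and the running median of the latter (line). Genes beyond a log2 change of 2 in either direction are not drawn. At day 7 the members' median lies below that of the other genes in every length class, from a median of −0.80 at most 400 bases to −0.64 above 1500 bases.

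A class of other short genes was formed from protein-coding genes whose merged exon length and mean abundance lay between the 10th and 90th percentiles of the members. Of these 382 genes, 229 (59.9%) were lower at day 7, with a median log2 change of −0.31, 9 were lower at day 14, and 83 rose from day 7 to day 14. Merged exons overstate the length of member transcripts (a median of 1770 bases against 780), so the class was also formed by principal transcript length. Of those 169 genes, 133 (78.7%) were lower at day 7, with a median of −0.49, and 52 (30.8%) rose from day 7 to day 14, with a median of 0.27. Of these 169 genes, 16.0% had a day 7 change below the members' median of −0.68.

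Members were then tested against short genes directly, by scaling the libraries on those genes alone. On the first class, 69 of 83 members were lower at day 7 (3.73% of all genes) with a median of −0.36. On the 169 genes chosen by transcript length, 47 were lower (1.86% of all genes) with a median of −0.23, while 1 member was higher at an unadjusted p under 0.05. This scaling moved the median of all genes at day 7 up by 0.47. With it Rpl3 and Rps27l turned to small positive values (0.07 and 0.09), so the direction of these 2 depends on the scaling. Against the same 169 genes, 0 members were lower at day 14 (0.00652% of all genes; 25 members and 1.53% of all genes at an unadjusted p under 0.05) and 0 were higher at day 14 than at day 7 (0.723% of all genes; 9 members and 2.2% of all genes at an unadjusted p under 0.05), both by edgeR.

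Correcting each library for a smooth trend with transcript length and GC content left 60 of 83 members lower at day 7 (9.21% of all genes), with a median of −0.32, 1 lower at day 14 (0.176%) and 14 higher at day 14 than at day 7 (3.92%). Across members, rho between transcript length and corrected change was −0.22 at day 7 and 0.02 at day 14. Between the times it was 0.48, against 0.10 before correction, so these 14 calls are not free of a trend with length. The member lower at day 14 was Rps20, and its annotated principal transcript has 3706 bases. Among the 14 were Rpsa, Rpl5, Rpl23a, Rpl27, Rpl30, Rpl7l1, Rps3, Rps4x, Rps14, Rps15a, Rps20, Rps23 and Rps24. Rps3 kept a change of −0.66 at day 7 (adjusted p = 2.4e-05) and Rpsa one of −0.48, while Rpl3 (−0.11), Rpl36 (−0.20), Rpl38 (−0.21) and Rps28 (−0.32) no longer passed the test. With merged exon length in the correction, 72 were lower at day 7 (11.0% of all genes), 3 at day 14 (0.28%) and 33 were higher at day 14 than at day 7 (4.17%).

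**Figure D4:**
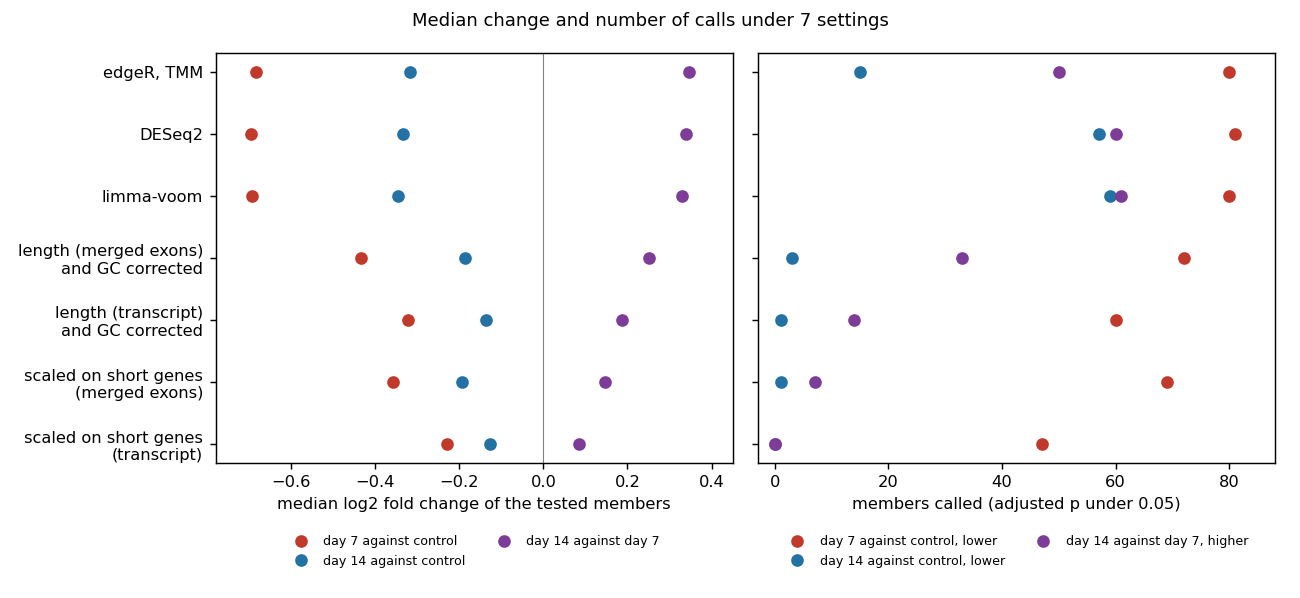
Median log2 change of the tested members (left) and number called (right) in the 3 comparisons under 7 settings, from the scaling used throughout to corrections for length and scaling on other short genes. The day 7 median stays below 0 in all 7, between −0.70 and −0.23, while the day 14 calls run from 59 to 0. In the last setting both day 14 comparisons have 0 calls and their points coincide.

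Members with a TOP tract at the annotated start and those without one were set side by side. The day 7 median was −0.73 in the 14 with a tract, −0.66 in 49 without and −0.69 in 20 whose promoter was not in the table. The median transcript had 602 bases in the first class and 833 in the second, so tract and length cannot be told apart here. Among the members whose starts are shown above, those with a tract ranged from −0.55 (Rps6) to −1.07 (Rps27rt), and the 2 without one stood at −0.56 (Rpl7l1) and −0.998 (Rps19bp1).

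Genes that work with the ribosome were read from lists. Fau encodes a 40S protein as a fusion with a ubiquitin-like protein, and Rack1 is a scaffold on the 40S subunit. Both were lower at day 7. At day 14 their changes of −0.29 and −0.23 did not pass the test. Rack1 was measured at 736, 720 and 633 CPM in controls, 451, 476 and 467 at day 7, and 607, 606 and 572 at day 14. Its groups did not overlap, and it fell by 0.58 at day 7 (adjusted p = 0.0001). The 26 tested other genes known for TOP mRNAs include Fau, Rack1 and elongation factors. Of these, 14 fell and 0 rose at day 7 (14.8% and 15.8% of all genes), with a median of −0.27. With the correction for transcript length and GC content 7 fell (9.21% of all genes), with a median of −0.12, and Fau (−0.16) no longer passed the test. Among them Tpt1, a growth-related cytosolic protein, changed by −0.68 and Eef1b2 by −0.66. Eef1a1, which brings aminoacyl-tRNA to the ribosome, changed by −0.23 (adjusted p = 0.0437). Eef2, which moves the ribosome along, had −0.17 and the nucleolar chaperone Npm1 −0.05, and neither passed the test.

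At day 7, 14.8% of all tested genes were called lower and 15.8% higher. Of 16 tested elongation factors 6 fell, and of 40 initiation factors 17 fell and 6 rose. Of 51 ribosome biogenesis genes 15 fell and 3 rose (median −0.22), and of 21 genes of RNA polymerase I, which makes ribosomal RNA, 7 fell and 0 rose (median −0.05). Of 35 genes of translational control 3 fell and 11 rose (median 0.18). With the correction for transcript length and GC content, 6 elongation factors fell and 1 rose, 9 initiation factors fell and 2 rose, and 10 biogenesis genes and 3 of RNA polymerase I fell, with 0 rising in either. In translational control 2 then fell and 4 rose (median 0.02). Among all tested genes the correction gave 9.21% lower and 8.46% higher.

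Some other groups have short transcripts too. All 48 nuclear genes of the respiratory chain fell (14.8% of all genes), with a median of −0.69 and a median transcript of 659 bases. All 14 genes of the proteasome core fell (−0.53), as did 14 of 19 genes of small nuclear ribonucleoproteins (−0.58) and 54 of 77 mitochondrial ribosomal protein genes (−0.47). After the correction, 26 respiratory chain genes, 8 of the proteasome core, 8 of the small nuclear ribonucleoproteins and 30 of the mitochondrial ribosomal proteins were still called lower (9.21% of all genes). The medians were then −0.32 for the cytosolic ribosomal proteins, −0.32 for the respiratory chain, −0.27 for the proteasome core, −0.40 for the small nuclear ribonucleoproteins, −0.28 for the mitochondrial ribosomal proteins and −0.15 for ribosome biogenesis. No difference between these lists was tested.

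**Figure D5:**
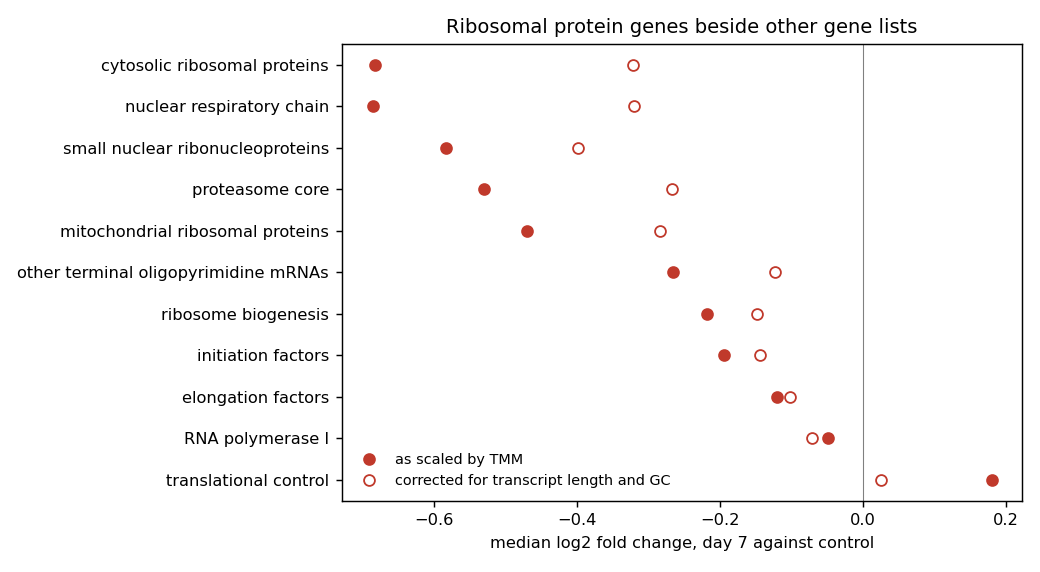
Median log2 change at day 7 against control of the cytosolic ribosomal protein genes and 10 other gene lists, as scaled by TMM (filled) and corrected for transcript length and GC content (open). The nuclear respiratory chain (−0.69) lies beside the ribosomal proteins (−0.68), and both stand at −0.32 after the correction.

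The 300 pseudogenes of ribosomal proteins marked "-ps" held 0.00758% of all counts without radiation, 0.00532% after 7 days and 0.00605% after 14 days, so they held a far smaller share than the member genes in every group. Their order over the groups was that of the members.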

How the data were processed

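The authors deposited raw counts, 1 whole number for each gene in each library. The tools named per the submitters' processing notes are STAR, featureCounts and DESeq2, and the build is mm10. Tool versions, settings, annotation and strand use: not given in the sources used here. Identifiers were matched to GENCODE M21 (GRCm38): 54495 of 54532 matched. Members and gene lists were chosen with earlier results of these data known, and the length classes, transcript-length settings and start-site search were chosen after the data were seen.

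The counts were fitted with edgeR 4.0.16 (R 4.3.3; filterByExpr, TMM scaling, robust quasi-likelihood test, two-sided) on all 9 libraries and 3 groups. P-values were adjusted by the Benjamini-Hochberg method over 15348 genes, with a threshold of 0.05. CPM values are TMM-scaled. Alternatives used DESeq2 1.42.0, and limma-voom 3.58.1 with a quality weight for each library. They also used other scalings and filters, offsets from splines of length and GC content, and each library left out in turn. Named members were given by rule. The rule took well-known members, the 5 largest and smallest changes in each comparison, all tested paralogs and any class of 5 or fewer. It also took the 5 highest and lowest per kilobase of merged exons in controls. The levels listed above are instead per kilobase of principal transcript. Rpl27, Rpl30, Rps15a, Rps20, Rps23, Rps24, Rpl15, Rpl31, Rpl32, Rpl34, Rpl35, Rpl37, Rpl37a, Rps18 and Rps26 were named after their values were seen, as were the sequences shown. The smallest chi-square per degree of freedom between libraries of a group was 9.19, so all 9 were kept as separate samples. Some single-gene results are not reported here.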

Additional observations from a re-analysis of the deposited data

Results flagged for a closer look

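The change from control was tested between the 2 times after irradiation. A significantly higher level at day 14 than at day 7 was found in 50 members (edgeR's quasi-likelihood test, adjusted p under 0.05). Among all genes this share was 3.72%. Leaving out 1 library at a time gave 7 to 62 members higher. Among the named members the difference in log2 change was 0.59 for Rps19bp1, 0.49 for Rpl35a, 0.48 for Rpl23a, 0.47 for Rps14, 0.47 for Rps15, 0.45 for Rps3 and 0.43 for Rpl36a. It was 0.38 for Rps4x, 0.38 for Rplp1, 0.37 for Rpsa, 0.37 for Rps3a1, 0.37 for Rpl5 and 0.35 for Rpl11. It was 0.34 for Rpl7l1, 0.33 for Rps6, 0.32 for Rplp0 and 0.31 for Rpl10. These differences are relative to the genes used for scaling. Scaled on other short genes chosen by transcript length, 0 members were called higher (0.723% of all genes). At an unadjusted p under 0.05, 9 members and 2.2% of all genes were higher under that scaling.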

How the results depend on the processing

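The direction of the members' median was the same under every alternative run in all 3 comparisons. Leaving out 1 library at a time gave 77 to 81 members lower at day 7 (median −0.77 to −0.64), 0 to 71 lower at day 14 (median −0.43 to −0.28) and 7 to 62 higher at day 14 than at day 7 (median 0.30 to 0.38). For other short genes of like abundance the medians ran from −0.38 to −0.29, from −0.21 to −0.10 and from 0.17 to 0.22.

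At day 14 against control, members lower numbered 23 with DESeq2 size factors (0.886% of all genes), 23 with TMM without the 20 most abundant genes (0.88%), 39 with no filter (1.37%), 57 with DESeq2 (3.55%), 59 with limma-voom (1.99%) and 4 with the replicate block (0.208%). With scaling on short genes the count was 1 (merged exon length, 0.0326% of all genes) or 0 (transcript length), and with the length and GC correction 3 or 1. With the block and the correction together it was 2 or 1 (0.0847% or 0.117%). Members higher at day 14 than at day 7 numbered 7 or 0 with scaling on short genes (1.01% or 0.723% of all genes), 33 or 14 with the correction, and 32 or 15 with the correction and the block (3.79% or 3.69%). Members lower at day 7 numbered 47 with scaling by transcript length, where Rpl3 and Rps27l turned to 0.0743 and 0.092.

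The members' medians at day 7, at day 14 and between the times were −0.36, −0.19 and 0.15 with scaling on short genes by merged exons. They were −0.23, −0.13 and 0.084 by transcript length. They were −0.43, −0.19 and 0.25 with the correction by merged exons (with the block −0.43, −0.185 and 0.25) and −0.32, −0.14 and 0.19 by transcript length (with the block −0.32, −0.14 and 0.19). For other short genes the same settings gave 0.0091, −0.0004 and 0.0021, then 0.14, 0.0645 and −0.0604, then −0.11, 0.0123 and 0.12 (with the block −0.12, 0.0111 and 0.12), then −0.15, −0.0069 and 0.13 (with the block −0.15, −0.0081 and 0.13). Chosen by transcript length, these genes had −0.49, −0.20 and 0.27. Chosen by merged exons with no abundance window, they had 0.15 between the times. Without the 20 most abundant genes the members' share was 5.27% in controls, 3.50% at day 7 and 4.30% at day 14.

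The replicate numbers were shared by the groups. After group means were removed, same-numbered libraries correlated between −0.11 and 0.04 and others between −0.09 and 0.16. No pairing by number was seen in these values, which come from 3 libraries a group. Whether same-numbered libraries shared a batch was not tested. Few counts limit members near 1 CPM, such as Rpl24, whose changes did not pass the test. The part of depth and of exon overlap in its low level was not tested. The length correction depends on the annotated principal transcript, which for Rps15a has 5130 bases and may not be the one expressed. The causes of the dependence on length and on single libraries were not tested.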
